A study of Mus musculus with 5 samples.

Results

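The transcriptome of memory Th1 cells was compared with that of control effector Th1 cells, using 1 array of each out of 5 arrays in the series, and the array of naive CD4 T cells served as the level before stimulation. Spleens of BALB/c mice were the source of the CD4 T cells in all 5 samples, and no genotype, age or treatment of the animals was given. The control effector cells, like the effector samples labelled Rap and TOFA, were named as cultured cells. TOFA blocks acetyl-CoA carboxylase, and what Rap stands for was not spelled out in the labels. The labels attached one culture condition to every sample, a Th1 culture of 5 days in which IL-2 was at 15 ng/ml and IL-12 at 10 ng/ml, although the naive and memory samples were not named as cultured, and they did not say how the memory cells were generated or sorted. How many animals stood behind each array was not stated. All probe sets with 1 gene symbol entered, 34945 of 45037, and they covered 18193 genes, of which 13239 could be compared between the memory and control effector arrays. With 1 array per group no test was possible, so a difference of 2-fold or more was used as a description and no value carries a replicate error.

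Th1 cells are the CD4 helper T cells that make interferon gamma, and T-bet, encoded by Tbx21, is their lineage factor. After stimulation a naive cell enlarges, divides and takes up glucose and amino acids. It also gains cytokines, granzymes and receptors for inflammatory tissue, and it switches off the receptors and transcription factors that keep a resting cell in lymphoid organs. Most effector cells die once the stimulus ends, and the memory cells that remain are resting, depend on IL-7 and keep part of the effector programme.

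Array quality values lay close together. The ratio of 3' to 5' probe sets was 0.832 to 0.918 for Gapdh and 1.26 to 1.45 for beta-actin, and the memory array stood at 0.918 and 1.41. The median deposited signal was 99.5 on the memory array and 63.1 to 74.2 on the other 4 arrays, so all arrays were put on a common distribution of signals before comparison. Signals under the 40th percentile, 43.4, were treated as a floor, folds against a gene at the floor are given as "at least", and genes at the floor on both arrays were not compared. Where a gene had several probe sets, the one with the highest mean log2 signal over the arrays stood for it. The SD between probe sets of the same gene in the memory minus control effector difference was 0.66 on the log2 scale over 6305 genes. This spread measures probe sets and not cultures or animals.

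T cell identity genes were detected on every array. Cd3d, a subunit of the T cell receptor complex, had a normalized signal of 21591 on the naive, 16076 on the control effector and 17052 on the memory array. Cd4 itself had 897, 628 and 483. Of 18 T cell identity genes, 1 was 2-fold higher and 0 were 2-fold lower in memory than in effector cells, against 14.2% and 14.1% of all genes, with a median log2 difference of 0.21, which became -0.46 when arrays were centred on a common median. Against the naive array, 5 of the 18 were 2-fold lower in memory cells, against 4.13% of all genes, with a median of -0.71.

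Markers of other spleen cells were also high on the memory array, and their values are given first because they touch several results. Of 27 macrophage and monocyte markers that could be compared, 26 were at least 2-fold higher on the memory than on the control effector array, with a median log2 difference of 6.96. Over all genes compared, 14.2% were 2-fold higher, and the median was -0.03. The summed signal of the 28 macrophage markers on the array was 6054 on the naive array, 3814 to 4809 on the 3 effector arrays and 263637 on the memory array. Of the 28, 12 lay at or under the floor in naive cells, 18 in control effector cells and 2 in memory cells. The markers under the floor in memory cells were Siglec1 and Clec4f.

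Under the naming rule, which asks for a signal of at least 150 and probe sets that agree and skips predicted genes, the 8 genes furthest higher in memory than in effector cells were all genes known from macrophages. Slc40a1, the iron exporter ferroportin, had a signal of 77.3 on the naive, 18.6 on the control effector and 35277 on the memory array, which is at least 813-fold. Spic, the transcription factor of red pulp macrophages, had 40.9, 13.4 and 15329, at least 353-fold. C1qa, a chain of complement C1q, had 7.72, 2.52 and 16550, at least 382-fold. The other 5 were Fcna (ficolin A), Lyz1 and Lyz2 (lysozymes), Mrc1 (the mannose receptor) and Tyrobp (a signalling adaptor of myeloid cells), between at least 340-fold and at least 608-fold. Each of these 8 was low on all 3 effector arrays. Among the 100 genes furthest higher in memory cells, 34 belonged to one of the 12 lists of other cells, against 151 of the 13239 genes compared (1.14%). These 12 lists include regulatory T and Tfh cells, which are CD4 T cells, and hold genes of activated T cells such as Il2ra and Ctla4.

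Markers of further cell types stood higher on the memory array as well, and B cell markers were also present on the naive array. All 16 B cell markers were 2-fold higher in memory than in effector cells, with summed signals of 37096 on the naive, 2706 on the control effector and 82980 on the memory array. Ms4a1, which encodes CD20, had 2406, 197 and 11124. For dendritic cell markers, 11 of 15 were higher and 1 lower. This list held MHC class II genes such as H2-Aa and H2-Ab1, and it shared Cd74 with the B cell list. Among its other members, Zbtb46, Wdfy4 and Cd209a were 2-fold above both the naive and control effector arrays. Flt3, Xcr1 and Siglech did not pass 2-fold against either of those arrays. For stromal and endothelial markers 11 of 15 were higher and 0 lower. The platelet list had 7 of 9 higher, with Pf4, a platelet chemokine, at 63.2 in naive and 2960 in memory cells and 31.2-fold higher in memory than in control effector cells. Neutrophil markers were higher for 9 of 13, and S100a8, a calcium-binding protein of neutrophils, had 2917 in naive, 20.3 in control effector and 6857 in memory cells. Erythroid markers gave 8 of 12 higher and 3 lower, with the globin gene Hba-a1 under the floor on both arrays.

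NK cell markers were less one-sided, with 3 of 8 higher and 2 lower, and Klra8 and Klre1 were under the floor in memory cells. Plasma cell markers had 4 of 9 higher and 3 lower. Among 7 CD8 T cell markers, 5 were higher and 1 lower, and Cd8a had a signal of 163 in naive, 65.3 in control effector and 371 in memory cells. Of the regulatory T cell markers, 7 of 10 were lower and 1 higher, and Foxp3, their lineage factor, had 275, 52.6 and 44.7. The Tfh list gave 7 of 12 lower and 3 higher. On one array a larger share of other cells and more RNA per such cell cannot be told apart, nor can fewer T cells and less RNA per T cell. The part of these cells in the differences of genes that they share with T cells was not tested.

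**Figure D1:**
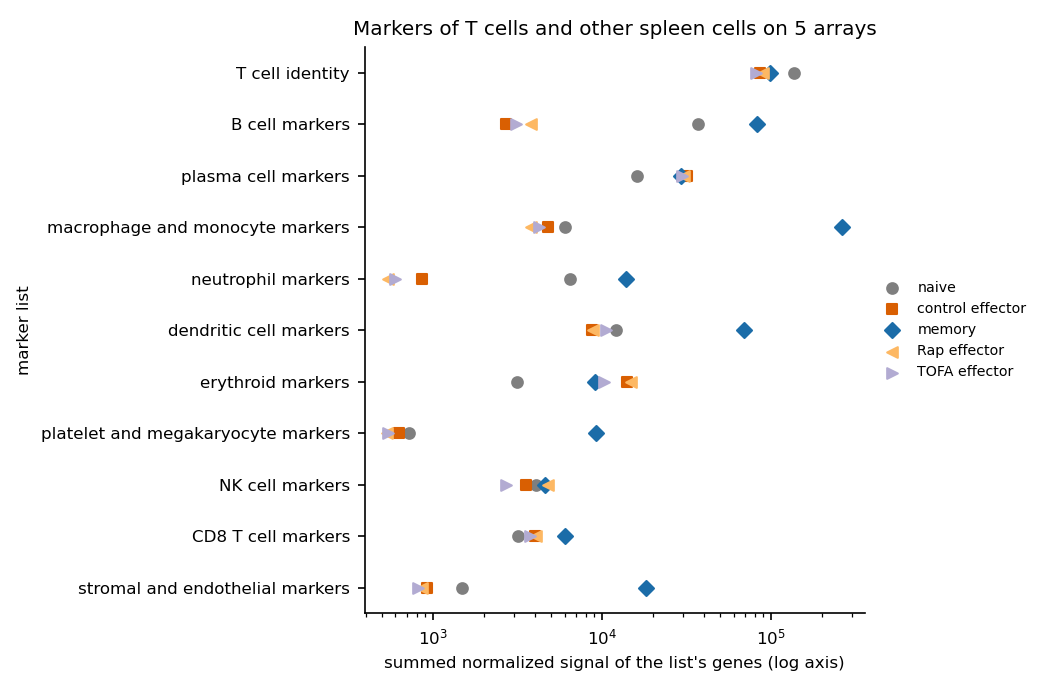
Summed normalized signal (x axis, log scale) of T cell identity genes and of the marker lists of 10 other cell types (y axis), 1 symbol per array, 5 arrays. The memory array lies to the right of the effector arrays for macrophage (263637 against 3814 to 4809), B cell, dendritic, neutrophil, platelet and stromal markers, while the T cell identity sum is 97971 on the memory array, 81194 to 89724 on the effector arrays and 137248 on the naive array.

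Across all genes, 1876 of 13239 (14.2%) were at least 2-fold higher and 1869 (14.1%) at least 2-fold lower in memory than in control effector cells. This even split belonged to the common distribution of signals. Counts of list members between memory and effector cells are to be read beside these shares of 14.2% and 14.1%. The values as deposited gave 2510 higher and 1453 lower, with a median log2 difference over all genes of 0.17, and arrays centred on one median gave 1438 higher and 2864 lower, with a median of -0.31. With the memory array raised to the naive level of T cell identity genes, 4544 were higher and 933 lower, with a median of 0.60. Directions of small differences therefore hold only relative to the scaling named. For comparison with the naive array, memory cells had 1595 genes higher (12.3%) and 538 lower (4.13%), and control effector cells had 2073 higher (15.9%) and 1484 lower (11.4%).

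**Figure D2:**
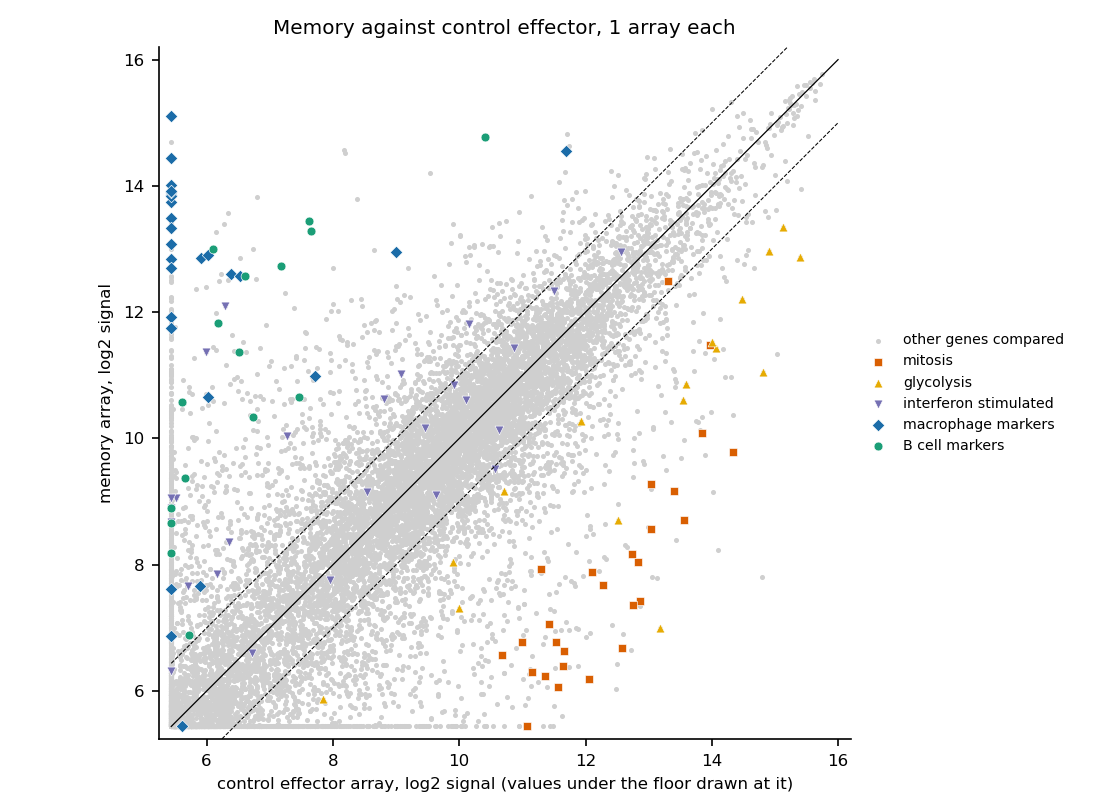
Normalized log2 signal of each gene on the control effector array (x axis) and the memory array (y axis), 1 array each, with values under the floor drawn at it, the solid line at equality and dashed lines at 2-fold. Mitosis genes lie far below the lines (median log2 difference -4.60), glycolysis genes lie below them (-2.50), and macrophage (6.96) and B cell markers (4.62) lie above.

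The genes named as markers of the comparison split into those of resting memory cells and those of effectors. Il7r, the alpha chain of the IL-7 receptor, had a signal of 18722 on the naive, 8065 on the control effector and 22487 on the memory array, 2.79-fold higher in memory than in effector cells. The Rap and TOFA effector arrays had 7868 and 7041, so the 3 effector arrays were alike and both resting samples were high. With arrays centred on one median the log2 difference of Il7r between memory and effector cells was 0.85, under 2-fold. Ccr2, a receptor for monocyte-attracting chemokines that is also the hallmark of inflammatory monocytes, had 144, 250 and 4165, 16.7-fold higher. Cxcr6, the receptor of Cxcl16 on memory and tissue T cells, had 202, 284 and 3015, 10.6-fold higher. Both were low in naive cells and on all 3 effector arrays, with 129 to 250 for Ccr2 and 125 to 284 for Cxcr6. Gzmb, the serine protease granzyme B, had 266 in naive, 28440 in control effector and 223 in memory cells, 127-fold lower in memory and the furthest lower of all genes under the naming rule.

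To separate what memory cells shared with effector cells from what they shared with naive cells, genes were sorted by the 3 arrays. Effector-high genes stood 2-fold or more above the naive array on the control effector array, and effector-low genes at least 2-fold lower. A gene was called returned where memory cells were 2-fold away from effector cells and within 2-fold of naive cells, kept where memory cells were 2-fold away from naive cells on the effector side and had not moved 2-fold back from effector cells, and part-way where memory lay 2-fold from both. Of 2073 effector-high genes, 1222 (58.9%) had returned, 397 (19.2%) were kept and 120 (5.79%) were part-way. Of 1484 effector-low genes, 590 (39.8%) had returned and 230 (15.5%) were kept low. The remaining genes lay between the levels or past the naive level. The naive and control effector arrays define the classes and also measure them, so these shares are a description. When the effector level was required on all 3 effector arrays, 858 returned and 252 kept high genes were left, and 389 and 149 on the low side.

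The share kept was smallest among genes with the largest effector differences, while the share part-way was largest there. Of 1285 genes that were 2 to 4 times higher in effector than in naive cells, 267 (20.8%) were kept, and at 4 to 8 times the share was 22.6%. At 8 to 16 times it was 12.4%. Of 173 genes at 16 times or more, 10 (5.78%) were kept, 116 (67.1%) had returned and 46 (26.6%) were part-way. Across those 173 genes the median log2 difference from naive was 4.68 in effector and 0.37 in memory cells. On the low side, 34 genes were 16 times or more lower in effector cells, and 14 of them had returned and 2 were kept. A gene under 4-fold cannot lie 2-fold from both arrays between them, so part-way genes are only found above that fold. The larger the effector difference, the higher memory cells had to stand above naive cells to count as kept. The fall in the kept share thus follows in part from the class rules. On the high side the median log2 difference of memory from naive cells was 0.23 at 2 to 4 times, 0.38 at 4 to 8 and 0.32 at 8 to 16.

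**Figure D3:**
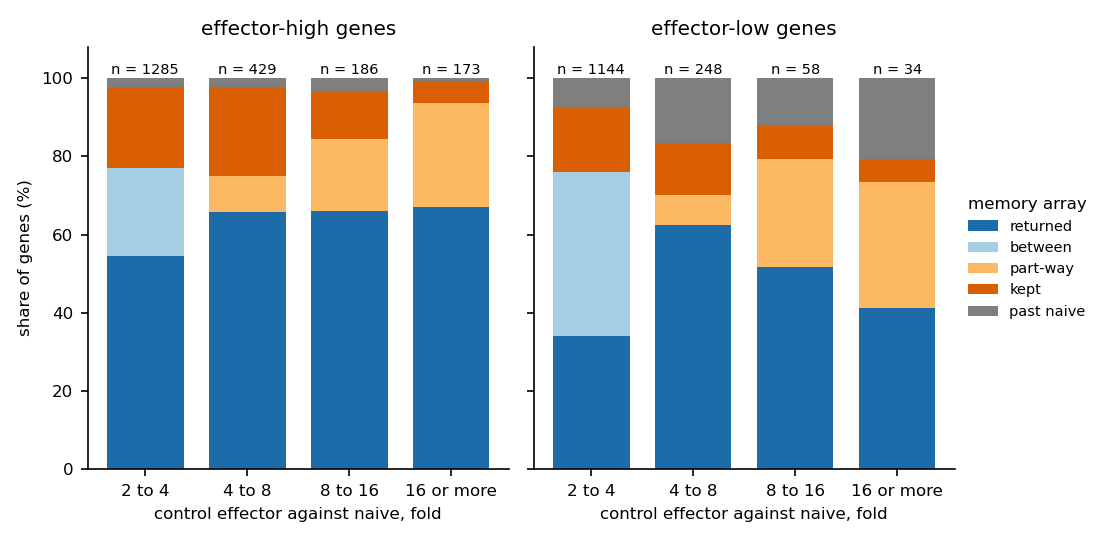
Share of genes (y axis, percent) in each class on the memory array, for effector-high and effector-low genes in bins of the control effector against naive fold (x axis), with the number of genes above each bar. Across the bins of effector-high genes, returned genes go from 54.6% to 67.1%, and kept genes are at 20.8%, 22.6%, 12.4% and 5.78%. Part-way genes, which the class rules allow only above 4-fold, are at 0%, 9.32%, 18.3% and 26.6%.

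Genes of cell division had mostly returned to the naive level. All but 1 of 27 mitosis genes were at least 2-fold lower in memory than in effector cells, against 14.1% of all genes, with a median log2 difference of -4.60. Their median difference between memory and naive cells was -0.01. Mki67, the proliferation marker Ki-67, had a signal of 560 on the naive, 14780 on the control effector and 1088 on the memory array, 13.6-fold lower in memory cells. Cdk1, the kinase that starts mitosis, had 148, 6900 and 164, 42.1-fold lower. Bub1, a spindle checkpoint kinase, had 112, 6089 and 103, 59.1-fold lower. Aurkb, the aurora kinase of the chromosomal passenger complex, had 69.3, 4266 and 72.8. In each case memory and naive cells were low together and the 3 effector arrays were high together. The exception was Bub3, a checkpoint protein present at 5881, 10167 and 5781.

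The promoters of mitosis genes are known for CCAAT boxes and for a cell cycle homology element, through which their transcription is held down in resting cells. They are shown for 3 of the mitosis genes that returned, in RefSeq windows of 300 bases from 250 before to 50 after the start (GRCm38.p6), with each CCAAT and each TTTGAA or TTTAAA on either strand in capitals. The windows are chr7:135716330-135716629 on the minus strand for Mki67, chr10:69352863-69353162 on the minus strand for Cdk1 and chr9:70421505-70421804 on the minus strand for Ccnb2, which encodes cyclin B2 and had signals of 193, 7422 and 172.
Mki67: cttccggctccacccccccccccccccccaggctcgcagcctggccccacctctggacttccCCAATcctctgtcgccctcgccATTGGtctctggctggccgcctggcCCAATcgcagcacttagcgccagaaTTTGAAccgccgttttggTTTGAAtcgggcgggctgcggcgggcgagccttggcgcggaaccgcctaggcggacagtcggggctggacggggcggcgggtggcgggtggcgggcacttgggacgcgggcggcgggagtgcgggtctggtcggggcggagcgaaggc
Cdk1: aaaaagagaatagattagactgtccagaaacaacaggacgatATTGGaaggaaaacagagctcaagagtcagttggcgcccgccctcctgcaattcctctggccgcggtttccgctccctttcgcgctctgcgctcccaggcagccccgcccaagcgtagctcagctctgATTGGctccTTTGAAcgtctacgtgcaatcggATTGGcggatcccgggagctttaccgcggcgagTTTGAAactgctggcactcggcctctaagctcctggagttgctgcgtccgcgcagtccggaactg
Ccnb2: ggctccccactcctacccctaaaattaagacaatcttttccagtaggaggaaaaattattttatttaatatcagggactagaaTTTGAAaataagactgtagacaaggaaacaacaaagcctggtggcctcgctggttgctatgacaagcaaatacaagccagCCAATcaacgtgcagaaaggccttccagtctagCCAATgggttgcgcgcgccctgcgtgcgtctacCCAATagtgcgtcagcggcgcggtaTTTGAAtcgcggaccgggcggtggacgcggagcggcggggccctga
Of 26 mitosis genes that were effector-high, 25 had returned, against 58.9% of all effector-high genes, and 21 of the 25 had a window. Of their 22 windows, 18 (81.8%) held CCAAT and 19 (86.4%) held TTTGAA or TTTAAA, against 37.4% and 27.6% of all 32851 windows. Both stood in 77.3% of the mitosis windows and in 10.7% of all windows. The letters are a description of the sequence, and binding was not measured.

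Replication genes had mostly returned as well. All 31 were 2-fold lower in memory than in effector cells, with a median log2 difference of -2.90, and the median against naive cells was -0.15. Cdc6, which loads the replicative helicase, had 77.3 in naive, 2427 in control effector and 70.8 in memory cells, 34.3-fold lower. Rrm2, a subunit of ribonucleotide reductase, had 510, 15207 and 852. Mcm6, a helicase subunit, had 828, 7690 and 797. All 31 were effector-high, and 29 of them had returned, against 58.9% of all effector-high genes. Tk1, thymidine kinase, stayed part-way at 51.1, 2511 and 235, and Pole2 lay under the naive level at 1221, 2814 and 368. Of 28 windows of replication genes, 57.1% held CCAAT and 17.9% TTTGAA or TTTAAA. Cdkn1a, the cell cycle inhibitor p21, followed the dividing cells with 62.4, 6164 and 120.

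Glycolysis genes were lower in memory cells without exception. All 16 were at least 2-fold lower, with a median log2 difference of -2.50 and a median of 0.12 against naive cells. Slc2a1, the glucose transporter GLUT1, had 1984 in naive, 11896 in control effector and 1562 in memory cells, 7.62-fold lower. Pkm, pyruvate kinase, had 1682, 12350 and 1861, and Ldha, lactate dehydrogenase A, had 10888, 35765 and 10426. Aldoc, an aldolase, had 98.9, 9323 and 127, 73.1-fold lower. Hk2, hexokinase 2, had 99.0, 5834 and 416, so memory cells were 14.0-fold under effector cells and still above naive cells. Tpi1, triosephosphate isomerase, also stayed part-way, with 920, 28614 and 2115.

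Of 19 genes of the hypoxia response, 17 were lower and 0 higher in memory than in effector cells, with a median of -3.02. Against naive cells 5 of 18 were 2-fold higher and 2 lower, with a median of 0.23, against 12.3% and 4.13% of all genes. Of 16 effector-high members, 10 had returned and 5 were part-way, against 58.9% and 5.79% of all effector-high genes. Egln3, an oxygen-sensing prolyl hydroxylase, had 148 in naive, 17543 in control effector and 300 in memory cells. Bnip3, a mitophagy receptor, had 228, 16597 and 570, and Ak4, an adenylate kinase, had 21.6, 1963 and 17.7. Hif1a, which encodes the oxygen-regulated factor itself, had 6060, 18001 and 7628. Ddit4, an inhibitor of mTORC1, was one of the 3 members that were not 2-fold higher in effector than in naive cells, with 12230, 13536 and 5010, beside Kdm3a and Car9.

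Sterol synthesis genes had returned to the naive level. Of 19, 18 were lower in memory than in effector cells, with a median of -2.11 and a median of 0.04 against naive cells. Hmgcs1, the HMG-CoA synthase, had 2785 in naive, 18454 in control effector and 2745 in memory cells, 6.72-fold lower. Idi1, an isomerase of the same pathway, had 964, 6920 and 672, and Fdps, farnesyl diphosphate synthase, had 667, 9869 and 723, 13.6-fold lower. The remaining gene, Ebp, had 1782, 3218 and 2308.

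Fatty acid synthesis, the pathway of the enzyme that TOFA inhibits, was less uniform. Of 26 genes, 12 were lower and 0 higher, with a median of -0.88. Scd2, a stearoyl-CoA desaturase, had 1878 in naive, 33506 in control effector and 2574 in memory cells. Fasn, fatty acid synthase, had 1147, 3582 and 857, 4.18-fold lower. Acaca, acetyl-CoA carboxylase itself, had 327, 836 and 397, 2.10-fold lower, and the log2 difference of its other probe set was -0.26. It was under 2-fold with the values as deposited. Scd1 had 731, 3622 and 2608 by its brightest probe set, 1.39-fold lower, but the log2 difference of its other probe set was -3.03, so whether Scd1 stayed high could not be settled. Fatty acid oxidation genes had 2 of 21 higher and 2 lower, against 14.2% and 14.1% of all genes. Their median of -0.16 was 0.54 with the memory array raised. Cpt1a, which brings fatty acids into mitochondria, had 1812, 1029 and 1880, 1.83-fold higher, but its 2 other probe sets disagreed, with log2 differences of -0.47 and 0.30. Lipa, the lysosomal acid lipase, had 2161, 535 and 4562, 8.52-fold higher, and it is also abundant in macrophages.

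Of 18 genes in a list of STAT5 targets and feedback genes, which included Spred1, Spry1 and Spry2, 12 were lower and 0 higher. The median was -1.63. Il2ra, the high-affinity chain of the IL-2 receptor, had 425 in naive, 4765 in control effector and 239 in memory cells. Il2rb had 385, 3375 and 320. Socs2, a feedback inhibitor, had 352, 11663 and 828. Of 33 genes of amino acid supply and ATF4, 18 were lower and 0 higher, with a median of -1.03. Psat1, an enzyme of serine synthesis, had 761, 5828 and 500, and Asns, asparagine synthetase, had 95.9, 1590 and 188.

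Of 15 cytokines compared, 7 were lower and 0 higher in memory than in effector cells, against 14.1% and 14.2% of all genes. The other 8 were under 2-fold. Ifng had a signal of 6.47 in naive, 4108 in control effector and 116 in memory cells, 35.4-fold lower than in effector cells and at least 2.67-fold above naive cells. The Rap and TOFA effector arrays had 980 and 2301. Lta, lymphotoxin alpha, had 419, 11016 and 337, 32.7-fold lower, and Lif had 30.9, 2881 and 42.1, at least 66.4-fold lower. Il10 had 23.5, 209 and 27.2. Among 15 cytotoxic granule genes, 2 were lower and 5 higher, against the same shares of all genes. Gzma, which also stood in the list of NK cell markers, had 845, 235 and 1140, so it ran opposite to Gzmb. Prf1, the pore protein perforin, had 668, 187 and 265, and Nkg7, a granule membrane protein, had 289, 833 and 643.

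**Figure D4:**
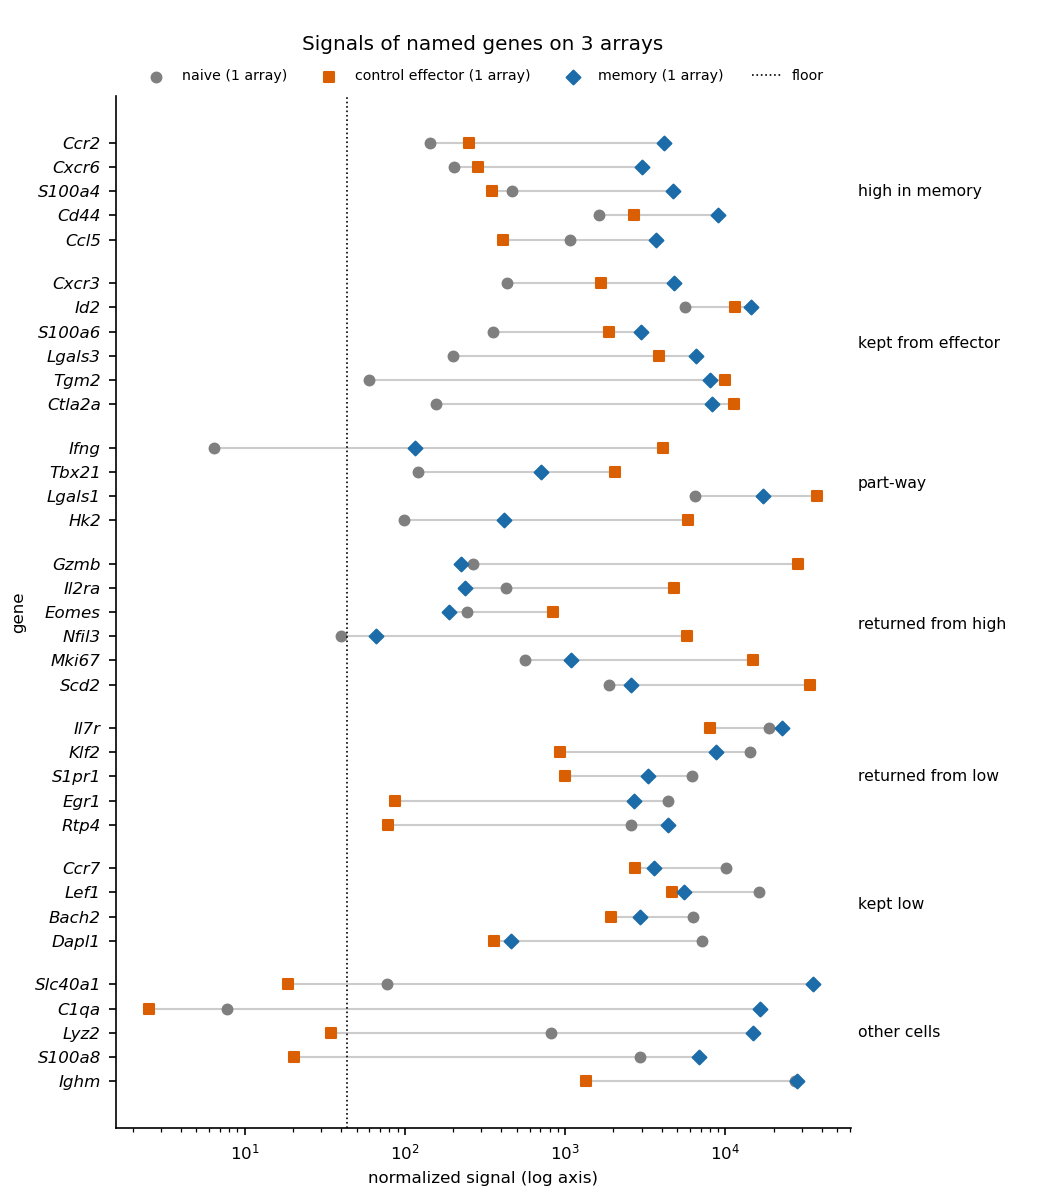
Normalized signal (x axis, log scale) of 35 genes (y axis) on the naive, control effector and memory arrays, 1 array each, with the floor of 43.4 dotted. Genes are grouped by class, except under the headings high in memory and other cells, which are not classes. Ighm, drawn among other cells, was in the class returned from low. Memory symbols lie close to the naive symbols for Gzmb (223 and 266) and near the effector symbols for Tgm2 (8035 and 9930). They lie to the right of both for Ccr2 (4165) and for Slc40a1, C1qa, Lyz2 and S100a8 among the genes of other cells.

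The transcription factors of Th1 effectors were split. Tbx21 had a signal of 121 in naive, 2036 in control effector and 710 in memory cells, 2.87-fold below effector and 5.85-fold above naive cells. Eomes, its close relative, had 245, 837 and 188, and Runx3, a partner of T-bet, had 861, 2956 and 887, so both were at the naive level. Prdm1, which encodes Blimp-1, had 303, 1482 and 560, and Irf4, a factor induced by antigen receptor signalling, had 186, 4264 and 267. Nfil3 had 40.2, 5746 and 65.7, 87.5-fold lower. Batf3 stayed part-way with 85.1, 3678 and 293, as did Bhlhe40 with 61.8, 5248 and 1253. Of 24 memory and effector transcription factors, 8 were lower and 4 higher, against 14.1% and 14.2% of all genes. Their median of -0.16 became 0.54 when the memory array was raised to the naive level of T cell identity genes. Prdm1 and Tbx21 were under 2-fold from effector cells on that scale.

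Other transcription factors stayed at the effector level or above it. Id2, an inhibitor of helix-loop-helix factors that is kept in effector lineages, had 5559 in naive, 11508 in control effector and 14368 in memory cells, though it was no longer 2-fold above naive when arrays were centred. Hopx, reported as a survival factor of Th1 effector and memory cells, had 112, 446 and 824. Zeb2, a factor of terminal effector cells and macrophages, had 34.8, 161 and 1532, 9.49-fold higher in memory than in effector cells. Maf had 670, 1602 and 9476, 5.92-fold higher, and Irf8 had 417, 3150 and 4175. Macrophages express Zeb2, Maf and Irf8 as well, and their markers were high on the same array.

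Receptors of Th1 cells for cytokines were also split. Il18r1 had 4142 in naive, 5458 in control effector and 14479 in memory cells, 2.65-fold higher, and its partner Il18rap had 186, 846 and 934. Both form the receptor for IL-18, which drives interferon gamma without antigen. Il12rb1, shared by the receptors for IL-12 and IL-23, had 41.6, 664 and 56.6, 11.7-fold lower, and Il12rb2 had 6.66, 193 and 36.0. So the IL-18 receptor chains were at or above the effector level and the IL-12 receptor chains were at the naive level. Of 13 genes of Th1 specification, 5 were higher and 6 lower, with a median of -0.39 that became 0.28 with the memory array raised.

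The 397 kept high genes included 299 that lay within 2-fold of the effector level and 98 that were 2-fold above it. Tgm2, tissue transglutaminase, had a signal of 59.8 in naive, 9930 in control effector and 8035 in memory cells, 166-fold above naive in effector cells. Ctla2a, which encodes a cathepsin inhibitor first found in activated T cells, had 156, 11314 and 8234, and its neighbour in sequence Ctla2b had 94.5, 2117 and 1603. Tgm2 and Ctla2a were part-way when arrays were centred. Ifitm2, an interferon-induced membrane protein, had 77.4, 1907 and 1688. Pygl, glycogen phosphorylase, had 78.3, 1637 and 1797. Fscn1, the actin bundler fascin, had 10.9, 890 and 674, and Tgm1 had 20.6, 897 and 918. The effector and memory signals of these genes lay within 2-fold of each other, while naive cells were far lower. Markers of other cells were high on the memory array, and the part of those cells in these memory signals was not tested.

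Of the kept high genes, 5 stood in lists of other cells, 3 of them among macrophage markers. Hmox1, heme oxygenase, had 61.4 in naive, 210 in control effector and 2032 in memory cells. Axl, a receptor for dying cells, had 27.9, 512 and 7966, and Ctsb, cathepsin B, had 1629, 3295 and 24059. These were already 2-fold higher in effector than in naive cells and were 7.30-fold to 15.6-fold higher again in memory cells. Lgals3, galectin-3, which T cells gain on activation and macrophages express strongly, had 198, 3842 and 6586.

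Cytoskeletal and calcium-binding genes were mostly above the naive level. The list of S100, annexin, galectin and vimentin genes also held Tagln2, Ahnak, Crip1, Capg, Lmna, Emp3 and Cd9. Of its 19 genes, 12 were 2-fold higher in memory than in naive cells, against 12.3% of all genes. In effector cells, 11 were 2-fold higher than in naive cells, against 15.9%. S100a6 had 353 in naive, 1877 in control effector and 2974 in memory cells. S100a4, a marker of memory T cells that macrophages also express, had 463, 348 and 4714, 13.6-fold higher in memory than in effector cells. Anxa1, a lipid-binding regulator of inflammation, had 329, 648 and 4012, 6.19-fold higher. Crip1 had 5784, 12092 and 16136. Lgals1, galectin-1, had 6481, 37357 and 17203, 2.17-fold lower, and Anxa2 had 602, 17963 and 3785, 4.75-fold lower. Vim, vimentin, had returned to 15835 from 43761, with 11481 in naive cells. The list's median difference between memory and effector cells was 0.43, and -0.04 with arrays centred.

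Chemokine receptors and adhesion molecules were often higher in memory cells. Of 17 homing receptors compared, 10 were higher than in effector cells and 1 lower, with a median log2 difference of 1.71. Of 19 adhesion genes 11 were higher and 0 lower, with a median of 1.30. Over all genes the shares were 14.2% higher and 14.1% lower. Cxcr3, the receptor for interferon-induced chemokines on Th1 cells, had 432 in naive, 1679 in control effector and 4799 in memory cells, 2.86-fold higher. The Rap effector array had 4019 and the TOFA array 2317, so the memory signal was near the highest effector signal. Ccr6 had 327, 95.1 and 935, and Cxcr5 had 290, 94.7 and 773, both of which B cells express as well. Ackr3, a scavenging chemokine receptor, had 14.3, 18.8 and 1690. Cd44, the hyaluronan receptor used to define memory T cells, had 1624, 2692 and 9058, 3.36-fold higher, and its 2 other probe sets went the same way. Itgb1, the integrin beta-1 chain, had 751, 1418 and 3723. Itgax, which encodes CD11c of dendritic cells and some macrophages, had 41.6, 42.6 and 843.

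The killer lectin receptor list also held Cd7, which is not a lectin receptor. Of its 6 genes compared, 5 were higher in memory than in effector cells, Cd7 among them, and 1 lower. Over all genes the shares were 14.2% and 14.1%. Klrd1, which encodes CD94, had 654 in naive, 372 in control effector and 3300 in memory cells, and Klrc1, its partner NKG2A, had 79.1, 211 and 565. Klrk1, which encodes NKG2D, ran the other way with 64.5, 1486 and 670. Klrd1 and Klrc1 are expressed by NK cells too, and both stood in the CD8 T cell list, with 5 of 7 higher and 1 lower. The part of such cells in these differences was not tested. Of 10 chemokine genes compared, 5 were higher, 4 under 2-fold and 1 lower, against the same shares of all genes. The lower one was Ccl22, with 32.4, 102 and 36.0. Ccl5, a chemokine stored by memory T cells, had 1079, 408 and 3708, 9.08-fold higher in memory than in control effector cells, and the TOFA effector array had 1691. Cxcl9 and Cxcl10, chemokines induced by interferon in macrophages and stroma, had 1031 and 475 in memory cells against 57.0 and 34.5 in control effector cells.

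Genes of the resting state split into those that had returned and those that stayed low. Klf2, the transcription factor that keeps T cells quiescent and recirculating, had 14239 in naive, 934 in control effector and 8746 in memory cells, 9.37-fold higher. Its target S1pr1, the receptor that lets T cells leave lymphoid organs, had 6218, 1004 and 3286, 3.27-fold higher. Btg2, an antiproliferative factor, had 9925, 1200 and 8532, and Txnip, which limits glucose uptake, had 22256, 3709 and 15406. When arrays were centred, Klf2, S1pr1 and Txnip were part-way. Tgfbr2, the receptor for TGF-beta, had 10184, 1976 and 12300, and Itga4, the integrin alpha-4 chain, had 3659, 358 and 3541.

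Other genes of naive cells stayed at the effector level. Ccr7, the receptor that guides T cells into lymph nodes, had 10056 in naive, 2712 in control effector and 3604 in memory cells, a 1.33-fold difference between effector and memory. The Rap and TOFA effector arrays had 6316 and 4261. Lef1, a partner of beta-catenin in naive and stem-like T cells, had 16176, 4674 and 5507, while its other probe set was lower in memory than in effector cells, with a log2 difference of -0.52. Bach2, a repressor of effector genes, had 6316, 1941 and 2913. Foxo1, which sustains Klf2 and Il7r, had 5496, 1525 and 2241, and Cd27, a costimulatory receptor, had 5661, 1160 and 2062. Of 26 quiescence and stemness genes, 14 were 2-fold lower in effector than in naive cells, beside 11.4% of all genes. Of these 14, 6 had returned, against 39.8% of all effector-low genes, and 4 were kept low, against 15.5%. Of the 26, 8 were 2-fold lower in memory than in naive cells, against 4.13% of all genes. With the memory array raised to the naive level of T cell identity genes, Ccr7, Bach2, Foxo1 and Cd27 were in the returned class and Lef1 lay between the levels.

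The kept low genes with the largest effector differences under the naming rule were Ampd1, Dapl1, Xkrx, Pde5a, Rgmb, Amigo2, Crtam and Nipal1. Dapl1 had 7154 in naive, 360 in control effector and 460 in memory cells. Ampd1, the AMP deaminase of muscle, had 928, 24.9 and 69.4, and Pde5a, a phosphodiesterase for cyclic GMP, had 1281, 104 and 104. Crtam, a receptor of cytotoxic CD4 and CD8 cells, had 727, 69.8 and 63.2. Each was over 7-fold lower in effector than in naive cells. The effector signals of Ampd1 and Xkrx were under the floor, so their distance from memory cells has only a lower bound, at least 1.60-fold and at least 1.79-fold. Ampd1, Xkrx and Rgmb were part-way with the values as deposited.

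Of 26 interferon-stimulated genes, 13 were higher in memory than in control effector cells and 1 was lower, against 14.2% and 14.1% of all genes. The other 12 were under 2-fold, and the median log2 difference was 1.30. Against naive cells 14 of 26 were 2-fold lower in effector cells, beside 11.4% of all genes. Of these 14, 9 had returned in memory cells, against 39.8% of all effector-low genes. Irf7, the factor that amplifies type I interferon, had 561 in naive, 155 in control effector and 1056 in memory cells, 6.82-fold higher. Rtp4 had 2561, 78.1 and 4385, 56.1-fold higher, but the log2 difference of its other probe set was 1.08. Rsad2, the antiviral protein viperin, had 173, 63.5 and 2641, 41.6-fold higher. The effector arrays were not alike for this group. Irf7 had 338 on the Rap and 594 on the TOFA effector array, and Ifit3 had 56.2 and 424, so both genes were higher on those arrays than on the control effector array. B cells and macrophages also express these genes, and their part was not tested.

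The promoters of Ifit1 and Ifit3, which encode antiviral RNA-binding proteins, are shown as examples from the 9 interferon-stimulated genes that returned. Ifit1 had signals of 572 in naive, 81.4 in control effector and 328 in memory cells, 4.03-fold higher, and was part-way when arrays were centred. Ifit3 had 350, 12.6 and 535, at least 12.3-fold higher. The core of the interferon response element, GAAA, any 2 bases and GAAA again, is in capitals on either strand. The windows are chr19:34640639-34640938 on the plus strand for Ifit1 and chr19:34583279-34583578 on the plus strand for Ifit3.
Ifit1: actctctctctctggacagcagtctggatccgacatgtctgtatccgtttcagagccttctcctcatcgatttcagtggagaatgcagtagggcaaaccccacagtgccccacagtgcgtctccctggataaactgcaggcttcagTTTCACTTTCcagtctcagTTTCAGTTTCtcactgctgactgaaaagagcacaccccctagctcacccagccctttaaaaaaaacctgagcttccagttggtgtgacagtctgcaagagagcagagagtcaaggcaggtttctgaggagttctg
Ifit3: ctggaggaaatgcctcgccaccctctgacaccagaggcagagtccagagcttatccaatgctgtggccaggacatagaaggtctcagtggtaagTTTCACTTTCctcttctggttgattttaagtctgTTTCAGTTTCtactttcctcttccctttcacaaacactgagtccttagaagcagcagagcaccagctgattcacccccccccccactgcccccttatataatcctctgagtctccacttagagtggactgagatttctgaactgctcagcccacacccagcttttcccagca
Each window held 2 such cores, while the windows of Irf7, Xaf1, Cmpk2 and Oasl1, which also returned, held 0. Of 24 windows from 19 interferon-stimulated genes, returned or not, 11 (45.8%) held the core. It stood in 3.44% of all windows and 5.56% of the windows of macrophage markers. Which factors bound these windows was not measured.

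Immediate early genes were low in control effector cells for several members. Of 23, 8 were higher in memory cells and 7 lower, and the median of 0.41 was -0.17 with arrays centred. Egr1 had 4383 in naive, 86.8 in control effector and 2683 in memory cells, 30.9-fold higher, with 351 and 966 on the Rap and TOFA effector arrays. Fos had 2794, 416 and 1962, and Dusp2, a phosphatase of MAP kinases, had 5603, 391 and 3655. Ier3 ran the other way, with 39.5, 6494 and 311. Among the genes returned from low with the largest differences, Jchain and Igkv8-30 are immunoglobulin genes of B and plasma cells. Jchain had 7090, 38.2 and 8561, and B cell markers were likewise low on the control effector array.

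Genes above both other arrays, or past the naive level from below, were the classes with most members of the other-cell lists among those counted. Of 794 genes 2-fold higher in memory than in both naive and control effector cells, 54 stood in a list of other cells, 18 of them macrophage markers, and of 139 genes past the naive level from low, 32 did. These are 6.8% and 23.0% of the 2 classes, against 1.14% of all genes compared. The share was 1.26% of kept high genes (5 of 397), 0.900% of genes returned from high (11 of 1222), 1.86% of genes returned from low (11 of 590) and 3.91% of kept low genes (9 of 230). Kept high and returned from high genes must be 2-fold above naive in effector cells, where 18 of 28 macrophage markers were at the floor. The shares thus follow in part from how the classes are defined, and they do not measure the part of other cells in a class. Foxp3, Ikzf2, Gpr83 and Tox, from the regulatory T and Tfh lists, were among the kept low members. Cd244a, a receptor of NK cells, memory CD8 cells and myeloid cells, had 94.7 in naive, 52.8 in control effector and 1708 in memory cells. Lamp1, a lysosomal membrane protein, had 4615, 3532 and 14164.

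Checkpoint and costimulatory receptors were divided. Of 23, 8 were lower in memory than in effector cells and 4 were higher, against 14.1% and 14.2% of all genes. The other 11 were under 2-fold, and the list median of -0.38 was 0.30 with the memory array raised. Ctla4, an inhibitory receptor for B7 ligands, had 788 in naive, 3659 in control effector and 203 in memory cells. Pdcd1, which encodes PD-1, had 195, 322 and 80.3. Tnfrsf4, which encodes OX40, had 712, 8439 and 587, and Tnfrsf9, which encodes 4-1BB, had 188, 1469 and 115. Icos, a costimulatory receptor, stayed part-way with 794, 10975 and 1799. Entpd1, the ectoenzyme CD39, was kept at 105, 700 and 866, and the part of other cells in its memory signal was not tested. Bcl2, the survival factor, had 7736, 13979 and 6879, 2.03-fold lower, and its 4 other probe sets went the same way, though it was under 2-fold with the memory array raised.

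Few genes of housekeeping pathways passed 2-fold, although their medians moved with the scaling. Of 32 oxidative phosphorylation genes, 1 was lower and 0 higher, with a median log2 difference of -0.30. It was -1.11 with arrays centred, -0.58 as deposited and 0.41 with the memory array raised. Of 28 MYC target and ribosome biogenesis genes, 3 were lower and 1 higher, with a median of -0.39 that was -0.94 with arrays centred and 0.31 with the memory array raised. Of 17 cytosolic ribosomal protein genes none passed 2-fold, with a median of -0.12 that was -0.53 with arrays centred and 0.59 with the memory array raised. Myc had 2385 in naive, 5076 in control effector and 2329 in memory cells. The guanylate-binding and immunity-related GTPases, targets of interferon gamma, had 1 of 9 lower and 0 higher, and their median of 0.60 was -0.15 with arrays centred.

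**Figure D5:**
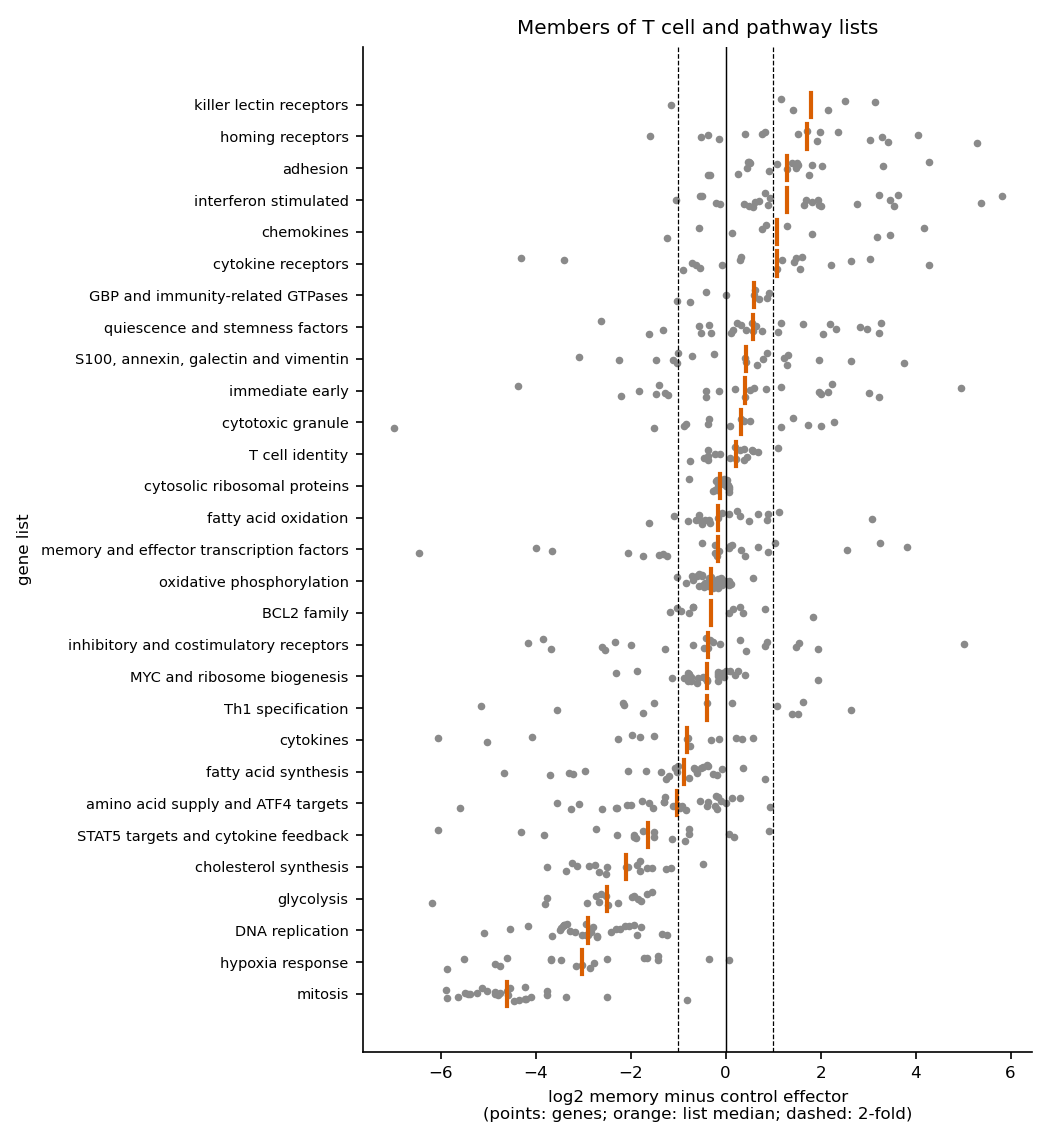
Log2 difference between the memory and control effector arrays (x axis, no unit) for each compared gene (points) of the T cell and pathway lists (y axis), with list medians in orange and 2-fold dashed. Medians run from -4.60 for mitosis to 1.79 for the killer lectin receptor list, which includes Cd7. Oxidative phosphorylation (-0.30) and ribosomal proteins (-0.12) lie near 0.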

How the data were processed

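The 5 arrays carried 45101 probe sets, of which 64 were controls. As deposited by the authors, each value is a linear intensity for 1 probe set. Per the submitters' processing notes, GCOS and Affymetrix Expression Console were used, and the sources used here give neither a version nor a summary method. The mean after trimming 2% at each end was 500.003 on every array. Controls were left out, arrays were quantile normalized, signals were raised to the 40th percentile, and a gene was read from its probe set of highest mean log2 level, in Python 3.11.15 with pandas 2.3.3 and numpy 2.4.6. Symbols came from the platform's 2016 annotation (932 probe sets had several symbols and 9160 none). The number of arrays, 1 per group, limits precision, and no test was made. The sorting into classes was tested on simulated data, with large changes in genes well above the floor. The simulated noise was small, and no other cells or shifts of scale were added. This does not test the sorting of changes near 2-fold or near the floor.

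The members, the 41 lists and the rule for named genes were chosen with earlier results of these data known. The rule took 35 fixed genes, the 8 furthest genes each way (2-fold, the higher signal at or above the 60th percentile, 150, all probe sets above the floor in the same direction, predicted genes skipped), the 8 with the largest effector difference in each of 4 classes, and up to 4 members per list. Other list members are examples chosen after their values were seen. Alternatives were values as deposited, median centring, other floors and folds, an added constant, probe set averages, leaving out _x_at and _s_at probe sets, and the effector state on all 3 effector arrays. Raising the memory array by 0.71 on the log2 scale, to the naive level of T cell identity genes, was chosen after seeing the data.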

Additional observations from a re-analysis of the deposited data

How the results depend on the processing

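No paired analysis was possible because each group had 1 array. The cause of the differences between settings was not tested. Of 208 genes named by the rule, 151 kept their side of 2-fold under every scaling, floor and probe set alternative, 29 fell under 2-fold in some and 28 passed it in some. The sign changed under some alternative for 18 of the 208, 12 of them with the memory array raised, and 0 of the 18 had been past 2-fold. List medians changed sign for 9 of 41 lists with the memory array raised, 6 with centring and 2 as deposited. Among list members, Nr4a2 (0.33) and Fkbp11 (0.87, log2) reversed without _x_at and _s_at probe sets. Of these 208 genes, 118 kept their class under the other 3 scalings. In the order higher, lower, kept high, returned from high, kept low and returned from low, the counts were 3136, 3258, 685, 1902, 740 and 1075 at 1.5-fold and 1094, 948, 194, 700, 46 and 253 at 3-fold. With the memory array raised they were 4544, 933, 825, 664, 69 and 1030. Median centring gave 2864 lower, 456 kept low and 359 returned from low. A floor at the 20th percentile gave 2903 lower, 831 kept high, 659 kept low and 905 returned from low, and the 60th percentile 225 kept high and 138 kept low. The effector state on all 3 effector arrays left 252 kept high, 149 kept low and 389 returned from low. Signals near the floor limit the folds of dim genes.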
